A study of Homo sapiens with 12 samples.

Results

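The antigen presentation genes considered here are 10 genes that make, load or control the major histocompatibility complex (MHC) molecules that show peptides at the cell surface. They were followed on Affymetrix gene arrays in HT29, a human cell line from a colon adenocarcinoma, given methotrexate, which blocks dihydrofolate reductase and so the folate cycle. The arrays form a control group, labelled untreated and taken as 0 h, and groups given 70 nM methotrexate for 8, 24 or 48 h, with 3 arrays in each of the 4 groups. The cells were grown in F12 medium with serum. No untreated array of a later time was used, so treatment and time in culture cannot be told apart. Members were chosen by name, with earlier results of these data known, so their counts beside shares of all genes are descriptive. Of the 28869 probe sets, 19 name at least 1 member. Of these, 16 name a single gene and cover 8 members (HLA-DMA, B2M, TAP1, TAP2, TAPBP, NLRC5, ERAP1 and CIITA). The other 3 name HLA-F together with HLA-B and are given apart. HLA-E was not analysed here.

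MHC class I molecules pair a heavy chain with beta-2 microglobulin and show peptides cut in the cytosol to cytotoxic T cells. The TAP transporter carries those peptides into the endoplasmic reticulum, where the aminopeptidase ERAP1 trims them and tapasin helps to load them. Class II molecules show peptides from endosomes, where HLA-DM edits them. Interferons raise both systems, and NLRC5 and CIITA are the master coactivators of class I and class II genes. In colon epithelium, class I is constitutive while class II depends mainly on inflammation.

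The mean was below control at 8 h in 7 of the 8 members and above it at 48 h in 7 of 8, against 42.4% and 52.9% of all genes. At 8 h, 3 of the 8 members fell (HLA-DMA, TAP1 and TAPBP) and 0 rose, while 24.2% of all genes tested were called and 12.0% were called lower. At 48 h, 4 of 8 rose (HLA-DMA, TAPBP, B2M and ERAP1) and 0 fell, against 13.0% of all genes called higher. The median member differed from control by -0.20 at 8 h, -0.06 at 24 h and 0.19 at 48 h on the log2 scale, beside 0.02, 0.02 and 0.01 for all 18377 genes. In each of the 8 members the 48 h mean lay above the 24 h mean and the 24 h mean above the 8 h mean, an order found in 23.3% of all genes. All 3 times were set against 1 set of control arrays, so these comparisons are not independent. A gene was called by limma's moderated test where p, adjusted over all genes by the Benjamini-Hochberg method, was under 0.05.

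Over the 5 comparisons the members leaned low early and high late. At 8 h against control the groups did not overlap in 5 members, all of them lower (37.9% of all genes did not overlap, 17.2% lower), and at an unadjusted p under 0.05 there were 5 lower and 0 higher (15.9% of all genes lower). At 24 h, 2 fell and 0 rose (8.02% and 8.69% of all genes), and at an unadjusted p under 0.05 the counts were again 2 and 0 (13.3% of all genes lower). The groups did not overlap in 3 (33.0% of all genes), of which 2 were lower and 1 higher (15.2% and 17.8%).

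At 48 h the 4 members called were also the 4 whose groups did not overlap, all higher (25.3% of all genes called and 12.3% called lower; 35.7% not overlapping and 17.9% higher). At 24 h against 8 h, 2 rose and 0 fell (9.99% and 9.40% of all genes), and 5 did not overlap, all higher (33.3%, and 16.7% higher). At 48 h against 24 h, 5 rose and 0 fell (5.26% and 4.86% of all genes), and 7 did not overlap, all higher (24.0%, and 11.5% higher). At an unadjusted p under 0.05 these last 3 comparisons had 4, 3 and 7 members higher and 0 lower, against 17.4%, 14.8% and 11.1% of all genes higher.

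The deposited values are log2 ratios to the median of the 3 control arrays, so differences between groups are measured and levels are not. For that reason the colon epithelial identity of the cells could not be checked from marker levels. Replicates had a median SD over genes of 0.0644 to 0.0660 in the control, 8 h and 24 h groups, and of 0.0869 at 48 h. In RNA from whole cultures, fewer expressing cells and less RNA per cell cannot be told apart. Replicate 3 of the 48 h group stood apart: it differed from its group's other arrays by a root mean square of 0.18 and 0.21 over genes, against 0.09 to 0.14 for the other pairs. The counts of members called at 48 h, against control and against 24 h, were the same without it, 4 and 5. The titles call the replicates biological without saying how cultures were kept apart, so the p-values measure only the spread between these arrays.

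**Figure D1:**
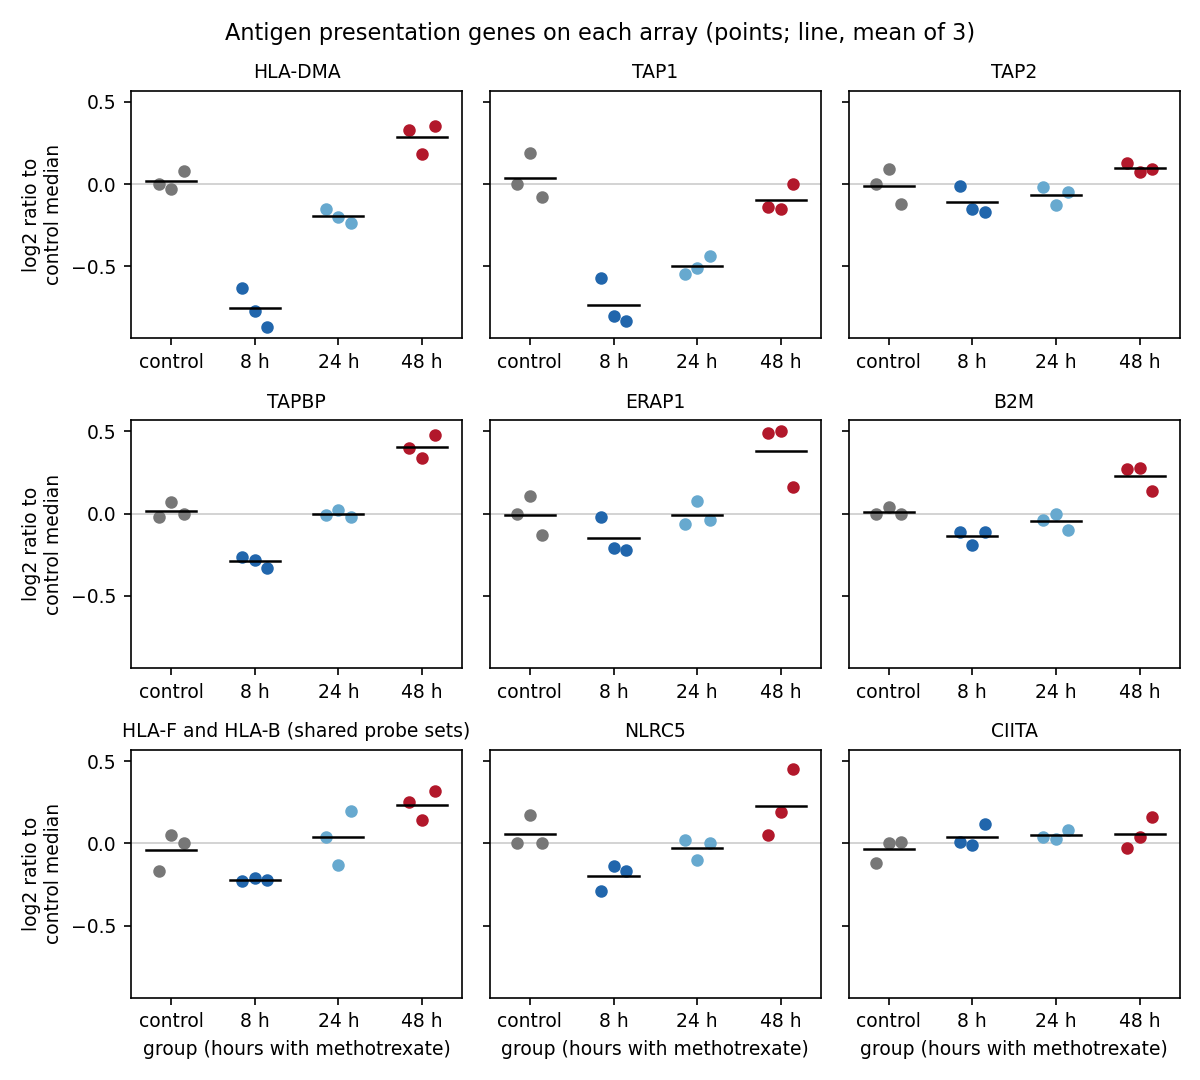
Log2 ratio to the control median (vertical axis) on each of the 12 arrays, by group. Points are arrays in replicate order and lines are means of 3. HLA-DMA and TAP1 have their lowest values at 8 h, and TAPBP, ERAP1 and B2M lie above all control arrays at 48 h.

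TAP1 and TAP2 are the paired chains of the peptide transporter. TAP1 read 0.00, 0.19 and -0.08 in control, -0.57, -0.80 and -0.83 at 8 h, -0.55, -0.51 and -0.44 at 24 h, and -0.14, -0.15 and 0.00 at 48 h. All 8 h and 24 h arrays lay below all control arrays, and the 48 h arrays overlapped them. TAP1 was 1.70-fold lower than control at 8 h (log2 fold change -0.77, SE 0.08, adjusted p = 1.94e-05), the 190th largest fall among the genes tested. At 24 h, where 16.7% of all genes were called, it was still 1.45-fold lower (-0.54, SE 0.08, adjusted p = 0.000529). The 48 h difference from control was -0.13 (SE 0.08, adjusted p = 0.292), ran from -0.25 to -0.06 over the alternatives, and was past the threshold with array weights (-0.25, adjusted p = 0.00259). TAP1 rose by 0.40 (SE 0.08) between 24 and 48 h (adjusted p = 0.00742), where 10.1% of all genes were called. The difference at 24 h against 8 h was 0.23 (SE 0.08, adjusted p = 0.0690, and 0.00742 to 0.239 over the alternatives).

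TAP2 showed much smaller differences. It read 0.00, 0.09 and -0.12 in control, -0.01, -0.15 and -0.17 at 8 h, -0.02, -0.13 and -0.05 at 24 h, and 0.13, 0.07 and 0.09 at 48 h. Only the 24 h and 48 h arrays did not overlap each other among the 5 comparisons. Against control it differed by -0.11 (SE 0.06, adjusted p = 0.280) at 8 h and 0.11 (SE 0.06, adjusted p = 0.268) at 48 h. The F test of any difference among the 4 groups gave adjusted p = 0.0630, and 5 alternatives took it past the threshold (range 0.00314 to 0.171). The 8 h difference ran from -0.05 to -0.18 over the alternatives and was past the threshold with array weights (adjusted p = 0.0127). The F test called 38.8% of all genes and 6 of the 8 members, all but TAP2 and CIITA.

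TAPBP encodes tapasin, which holds empty class I molecules at the transporter. It read -0.02, 0.07 and 0.00 in control, -0.26, -0.28 and -0.33 at 8 h, -0.01, 0.02 and -0.02 at 24 h, and 0.40, 0.34 and 0.48 at 48 h. The 8 h arrays lay below and the 48 h arrays above all control arrays, with 24 h among the controls. TAPBP fell 1.24-fold at 8 h (-0.31, SE 0.05, adjusted p = 0.000493) and differed by -0.02 (SE 0.05, adjusted p = 0.835) at 24 h. At 48 h it was 1.31-fold higher than control (0.39, SE 0.05, adjusted p = 7.39e-05). HLA-DMA and TAPBP were the members called both lower at 8 h and higher at 48 h against control, 2 of 8 against 1.83% of all genes. They were also the 2 of 8 called higher at 24 h against 8 h (19.4% of all genes called), and both rose again between 24 and 48 h, a pair of calls held by 2.10% of all genes.

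The promoters of TAP1 and TAPBP are shown because each holds the interferon-stimulated response element (ISRE), searched on either strand as GAAA, any 2 bases and GAAA again. The sequences are the 250 bases before the annotated start, from RefSeq on GRCh38.p14. They lie at chr6:32853705-32853954, minus strand, for TAP1 and at chr6:33314079-33314328, minus strand, for TAPBP. Capitals mark matches to the ISRE and, in TAP1 at the 5′ end, to the Y box, searched as CCAAT.
TAP1 promoter: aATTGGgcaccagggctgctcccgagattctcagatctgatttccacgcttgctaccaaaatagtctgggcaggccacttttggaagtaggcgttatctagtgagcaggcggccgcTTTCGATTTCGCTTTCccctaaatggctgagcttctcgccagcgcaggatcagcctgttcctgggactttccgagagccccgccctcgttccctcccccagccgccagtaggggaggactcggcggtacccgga
TAPBP promoter: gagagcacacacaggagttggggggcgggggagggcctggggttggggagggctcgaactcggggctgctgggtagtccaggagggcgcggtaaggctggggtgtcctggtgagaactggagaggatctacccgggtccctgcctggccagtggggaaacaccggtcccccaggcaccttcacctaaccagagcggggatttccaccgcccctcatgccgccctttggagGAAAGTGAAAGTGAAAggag

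ERAP1 trims peptides to the length that class I molecules hold. It read 0.00, 0.11 and -0.13 in control, -0.02, -0.21 and -0.22 at 8 h, -0.06, 0.08 and -0.04 at 24 h, and 0.49, 0.50 and 0.16 at 48 h. The 48 h arrays lay above all others, with replicate 3 well below the other two. ERAP1 rose 1.31-fold at 48 h against control (0.39, SE 0.09, adjusted p = 0.00741), and by 0.50 (adjusted p = 0.000419) without that array. At 8 h it differed by -0.14 (SE 0.09, adjusted p = 0.356). The rise between 24 and 48 h (0.39, SE 0.09, adjusted p = 0.0193) was lost without 24 h replicate 1 or 3 or 48 h replicate 1 or 2 (0.0728 to 0.0775) and in a fit of only these 2 groups (0.0626).

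B2M encodes beta-2 microglobulin, the light chain of every class I molecule. It read 0.00, 0.04 and 0.00 in control, -0.11, -0.19 and -0.11 at 8 h, -0.04, 0.00 and -0.10 at 24 h, and 0.27, 0.28 and 0.14 at 48 h. All 8 h arrays lay below and all 48 h arrays above the control arrays. B2M was 1.16-fold higher than control at 48 h (0.22, SE 0.05, adjusted p = 0.00611), and rose by 0.28 (SE 0.05, adjusted p = 0.00416) between 24 and 48 h. The 8 h difference was -0.15 (SE 0.05, adjusted p = 0.0527), just short of the threshold. It was past the threshold with array weights (0.00408) and without 48 h replicate 3 (0.0250), and spanned 0.00408 to 0.194 over the alternatives.

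The B2M promoter (chr15:44711267-44711516, plus strand, GRCh38.p14) is given because it holds, beside 2 overlapping ISRE matches, letters of the MHC enhancer that NLRC5 and CIITA act through. Capitals mark, 5′ to 3′, the ISRE matches, an X2 half-site searched as TGACG, and a Y box.
B2M promoter: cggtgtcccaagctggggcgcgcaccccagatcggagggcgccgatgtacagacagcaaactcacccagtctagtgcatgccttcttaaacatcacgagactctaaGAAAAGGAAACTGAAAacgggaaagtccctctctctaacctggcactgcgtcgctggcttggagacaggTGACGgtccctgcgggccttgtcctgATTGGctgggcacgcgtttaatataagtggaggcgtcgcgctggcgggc

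HLA-F, a class I heavy chain outside the classical set, was read only by 3 probe sets shared with HLA-B. Their mean was -0.17, 0.05 and 0.00 in control, -0.23, -0.21 and -0.22 at 8 h, 0.04, -0.13 and 0.20 at 24 h, and 0.25, 0.14 and 0.32 at 48 h. The 8 h arrays lay below and the 48 h arrays above all control arrays, while 24 h was spread across them. In a fit of all probe sets, where 18.8% were called at 48 h against control, each of the 3 was 0.28 higher then (SE 0.07 to 0.09, adjusted p = 0.0168, 0.0440 and 0.0360). Each call was lost without 48 h replicate 3 (0.0550, 0.131 and 0.111) and without control replicate 1 (0.0763, 0.177 and 0.149). At 8 h each of the 3 probe sets differed by -0.18 (adjusted p = 0.119 to 0.232, where 17.2% of probe sets were called). The differences at 48 h against 24 h were 0.19 to 0.22 (adjusted p = 0.0984 to 0.263, where 7.64% of probe sets were called). At 24 h they were 0.06 to 0.09 from control (adjusted p = 0.664 to 0.737, 11.7% called) and 0.24 to 0.27 from 8 h, where 14.6% were called and 1 of the 3 passed (adjusted p = 0.0415 to 0.0663). That call was lost in 8 alternatives (0.0537 to 0.168), among them leaving out any 1 of the 8 h arrays, while the other two probe sets passed with array weights (0.0136 and 0.0118).

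HLA-DMA, a chain of the HLA-DM peptide editor of class II, had the widest swing of the 8. It read 0.00, -0.03 and 0.08 in control, -0.63, -0.77 and -0.87 at 8 h, -0.15, -0.20 and -0.24 at 24 h, and 0.33, 0.18 and 0.35 at 48 h. None of the 4 groups overlapped another. HLA-DMA fell 1.70-fold at 8 h (-0.77, SE 0.07, adjusted p = 3.43e-06). It then rose by 0.56 (SE 0.07, adjusted p = 7.21e-05) between 8 and 24 h and by 0.48 (SE 0.07, adjusted p = 0.000574) between 24 and 48 h. At 48 h it was 1.21-fold higher than control (0.27, SE 0.07, adjusted p = 0.00810), and 0.24 higher (adjusted p = 0.0261) without 48 h replicate 3. The 24 h difference from control (-0.21, SE 0.07, adjusted p = 0.0457) was past the threshold by little. It was lost without any 1 of the control or 24 h arrays, 8 h replicate 2 or 48 h replicate 1 (0.0528 to 0.157). HLA-DMB, the other HLA-DM chain, was not called against control. It differed by 0.00 at 8 h, 0.01 at 24 h and 0.11 at 48 h (adjusted p = 0.979, 0.923 and 0.228).

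The HLA-DMA promoter (chr6:32953098-32953347, minus strand, GRCh38.p14) is shown because it lacks the ISRE letters. Whether this bears on its values was not tested. Its window holds 2 Y boxes, in capitals, and no match to the ISRE letters.
HLA-DMA promoter: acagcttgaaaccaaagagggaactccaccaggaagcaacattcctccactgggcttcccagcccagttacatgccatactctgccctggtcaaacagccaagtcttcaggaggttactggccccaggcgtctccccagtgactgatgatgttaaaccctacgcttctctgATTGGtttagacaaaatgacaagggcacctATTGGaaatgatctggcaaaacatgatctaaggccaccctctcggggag

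**Figure D2:**
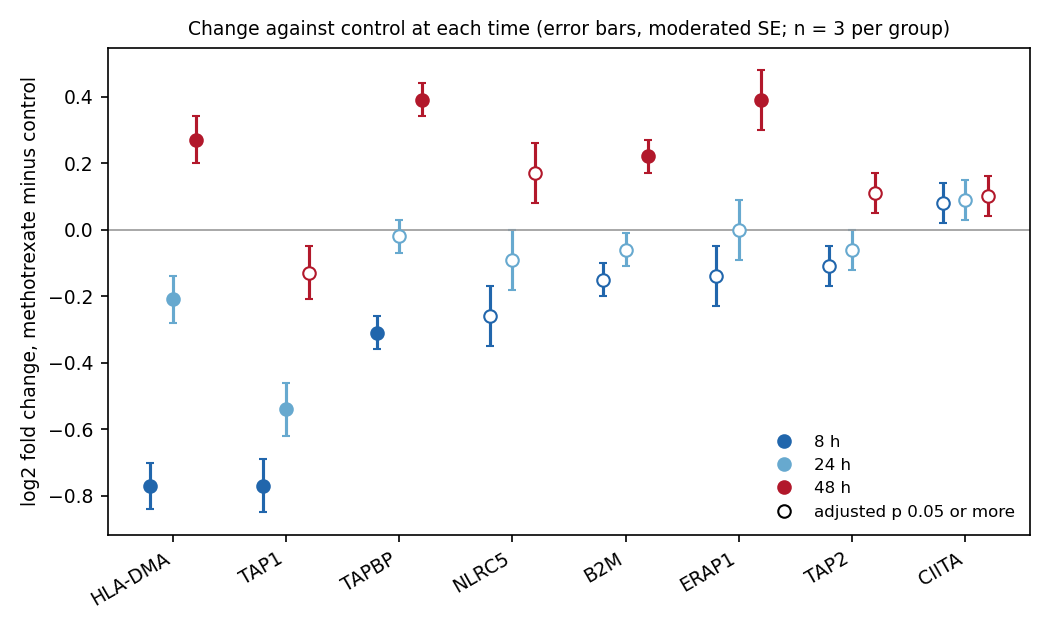
Log2 fold change against control (vertical axis) of the 8 members at 8, 24 and 48 h, from limma, with the moderated SE as bars and n = 3 arrays per group. Filled points passed an adjusted p of 0.05. TAP1 alone is called lower at 24 h by more than 0.5, and 4 members are called higher at 48 h.

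NLRC5 and CIITA, the coactivators, had no call against control. NLRC5 read 0.00, 0.17 and 0.00 in control, -0.29, -0.14 and -0.17 at 8 h, 0.02, -0.10 and 0.00 at 24 h, and 0.05, 0.19 and 0.45 at 48 h. The 8 h arrays lay below the control arrays, and the 48 h arrays were spread across and above them. NLRC5 differed by -0.26 (SE 0.09, adjusted p = 0.0544) at 8 h, and 6 alternatives took this past the threshold, within a range of 0.00313 to 0.215. At 48 h it differed by 0.17 (SE 0.09, adjusted p = 0.210), by 0.06 (adjusted p = 0.661) without 48 h replicate 3, and by 0.26 (adjusted p = 0.0449) without 48 h replicate 1. The F test over the 4 groups called it (adjusted p = 0.0108).

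CIITA read -0.12, 0.00 and 0.01 in control, 0.01, -0.01 and 0.12 at 8 h, 0.04, 0.03 and 0.08 at 24 h, and -0.03, 0.04 and 0.16 at 48 h. The groups lay on top of each other apart from 24 h, which lay just above control. Its differences from control were 0.08, 0.09 and 0.10 (SE 0.06 each, adjusted p = 0.450, 0.400 and 0.304) at the 3 times. Whether CIITA was above background cannot be told from ratios.

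Over the 12 arrays, the 7 members other than CIITA followed each other with Pearson correlations of 0.52 to 0.94 over their 21 pairs, B2M with ERAP1 being the closest at 0.94. CIITA's correlations with them were -0.24 to 0.33. These describe 12 arrays that fall in 4 groups. By the same measure, over all genes, TAP1 was most like FUCA1 (0.98), a lysosomal fucosidase, and like OAS3 and UBE2L6 (0.97 each), both interferon-stimulated. HLA-DMA was most like BLVRA, PLAAT4 and WBP2 (0.98 each). TAPBP was most like CSF1 and SECTM1 (0.99 each) and NPC2 (0.98). B2M followed CCNL1 (0.99), NCR3LG1 (0.98), which encodes a ligand of natural killer cells, and PRSS23 (0.97). ERAP1 followed LYST (0.98), NFAT5 and TBC1D2B (0.97 each). NLRC5 followed SLC15A3, RNPEPL1 and CCDC106 (0.95 each), and these fell to 0.91, 0.90 and 0.89 without 48 h replicate 3.

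Of 14 other measured genes of class I peptide supply and loading, 6 fell and 3 rose at 8 h, with a median of -0.08. That was 9 of 14 called, against 24.2% of all genes. At 48 h 5 rose and 2 fell, with a median of 0.05, or 7 of 14 called against 25.3% of all genes. PSMB9, an immunoproteasome subunit encoded beside TAP1, fell by 0.79 (SE 0.07, adjusted p = 5.97e-06) at 8 h and was 0.37 higher (SE 0.07, adjusted p = 0.00215) at 48 h. TAPBPL, a tapasin-related peptide editor, fell by 0.42 (SE 0.05) at 8 h, rose by 0.37 (SE 0.05) at 24 h and by 0.81 (SE 0.05) at 48 h, each against control (adjusted p = 5.17e-05, 0.000255 and 1.73e-07). PSME1, of the proteasome activator PA28, fell by 0.44 (SE 0.05) at 8 h and by 0.26 (SE 0.05) at 24 h (adjusted p = 1.66e-05 and 0.00166). THOP1, a cytosolic peptidase, rose by 0.39 (SE 0.08, adjusted p = 0.00353) at 8 h.

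Class I-like molecules were mixed. Of 8 measured, 4 fell and 2 rose at 8 h (median -0.14), 75.0% called against 24.2% of all genes. At 48 h 4 rose and 1 fell (median 0.17), 62.5% called against 25.3% of all genes. MR1, which presents vitamin metabolites, fell by 0.53 (SE 0.09, adjusted p = 0.000736) at 8 h and was 0.50 higher (SE 0.09, adjusted p = 0.00102) at 48 h. AZGP1, a secreted class I-like protein, fell by 0.92, 0.72 and 0.35 (SE 0.07 each) at 8, 24 and 48 h (adjusted p = 9.81e-07, 1.16e-05 and 0.00201). FCGRT, the heavy chain of the neonatal Fc receptor, fell by 0.46 (SE 0.08, adjusted p = 0.000838) at 8 h. MICA, a stress ligand, rose by 0.33 (SE 0.09) at 8 h and again at 48 h (adjusted p = 0.0216 and 0.0209). Both MICA calls were lost without control replicate 3 (0.0921 and 0.0883), and each without 2 arrays of its own treated group.

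The classical heavy chains were read only by shared probe sets, named here after their values were seen. The 3 sets naming HLA-C and HLA-B were 0.30 to 0.35 higher than control at 48 h (SE 0.05 each, adjusted p = 0.000830 to 0.00120) and differed by -0.11 to -0.10 at 8 h (adjusted p = 0.184 to 0.279). The probe set naming CD74, the class II invariant chain, together with ROS1 fell by 0.29 (SE 0.07, adjusted p = 0.0147) at 8 h and was 0.74 higher (SE 0.07, adjusted p = 2.03e-05) at 48 h. The 15 probe sets shared among HLA-DR and HLA-DQ chains, the class II molecules themselves, did not pass the test at any time. Their differences from control were -0.05 to 0.12 at 8 h, -0.07 to 0.23 at 24 h and -0.08 to 0.27 at 48 h, with lowest adjusted p = 0.187, 0.148 and 0.121.

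Of 13 measured class II genes with probe sets of their own, 4 fell and 0 rose at 8 h (median -0.04), 30.8% called against 24.2% of all genes. At 48 h 3 rose and 1 fell (median 0.00), again 30.8%, against 25.3% of all genes, or 2 and 2 without 48 h replicate 3. MARCHF8, a ubiquitin ligase that removes MHC molecules from the surface, fell by 0.59, 0.33 and 0.53 (SE 0.07 each) at 8, 24 and 48 h (adjusted p = 2.85e-05, 0.00392 and 6.38e-05). LGMN, an endosomal protease, fell by 0.24 (SE 0.06, adjusted p = 0.00711) at 8 h. CTSS, which degrades the invariant chain, differed from control by -0.46 (SE 0.14, adjusted p = 0.0286) at 8 h, a call lost when any 1 control or 8 h array was left out (0.0512 to 0.101). MARCHF1, a related ligase, differed by -0.23 (SE 0.07, adjusted p = 0.0396), lost without 8 h replicate 2 or 3 or control replicate 1 or 2 (0.107 to 0.155). The 4 genes that fell at 8 h include no HLA chain. HLA-DPA1, HLA-DPB1, HLA-DQA1, HLA-DQB1, HLA-DMB, HLA-DOA and HLA-DOB were not called then (adjusted p = 0.684 to 0.979).

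Of 11 measured factors of the MHC enhancer and its regulators, 2 rose and 1 fell at 8 h (median -0.11), 27.3% called against 24.2% of all genes. At 48 h 2 rose and 2 fell (median -0.01), 36.4% called against 25.3% of all genes. Without 48 h replicate 3, 2 rose and 1 fell. RFX5, of the complex that binds the X box, fell by 0.23 (SE 0.06, adjusted p = 0.0150) at 8 h and was 0.49 higher (SE 0.06, adjusted p = 5.84e-05) at 48 h. The 8 h call was lost without control replicate 1 or 2 or 8 h replicate 2 or 3 (0.0560 to 0.0711). EZH2, a histone methyltransferase that can silence MHC genes, rose by 0.32 (SE 0.08, adjusted p = 0.0117) at 8 h, and this was lost without 8 h replicate 1 (0.0545). NFYA, which binds the Y box, rose by 0.20 (SE 0.06, adjusted p = 0.0267) at 8 h, lost without control replicate 2 or 3 or 8 h replicate 1 (0.0723 to 0.107).

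Of 15 measured genes of interferon signalling, 5 fell and 1 rose at 8 h, with a median of -0.17, 40.0% called against 24.2% of all genes. IRF9, the DNA-binding part of the factor that reads the ISRE, fell by 1.67 (SE 0.07) at 8 h, 0.88 at 24 h and 0.47 at 48 h (adjusted p = 5.04e-09, 1.53e-06 and 0.000194). IRF1, a factor that binds similar sites, fell by 0.75 (SE 0.06, adjusted p = 2.04e-06) at 8 h and rose by 0.58 (SE 0.06, adjusted p = 2.79e-05) at 24 h against 8 h. GBP2, an interferon-induced GTPase, fell by 0.66 (SE 0.09, adjusted p = 0.000126) at 8 h. IFNGR1, a chain of the interferon-gamma receptor, rose by 0.40, 0.42 and 0.51 (SE 0.05 each) at 8, 24 and 48 h (adjusted p = 0.000110, 0.000114 and 1.11e-05). IFNGR2, the other chain, went the other way. Its differences from control were -0.35, -0.19 and -0.12 at the same times (adjusted p = 0.000282, 0.0211 and 0.104). At 48 h, 2 of the 15 were higher and 2 lower than control (median 0.04), 26.7% called against 25.3% of all genes. Without 48 h replicate 3, 3 were higher and 2 lower.

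Leukocyte markers stand for cells that an epithelial line should not hold. Of 13, limma called 0 in each of the 5 comparisons, and at an unadjusted p under 0.05 there were 0 at 8 h, 0 at 24 h, and 1 higher and 1 lower at 48 h against control. At 8 h the 2 with the smallest p were CSF1R (0.12, SE 0.06, adjusted p = 0.164) and CD86 (-0.09, SE 0.05, adjusted p = 0.229). Of 12 epithelial markers, 1 rose and 2 fell at 8 h (median 0.02), or 3 of 12 called against 24.2% of all genes. At 24 h 3 rose and 1 fell, or 4 of 12 called against 16.7% of all genes. At 48 h 2 rose and 1 fell, or 3 of 12 called against 25.3% of all genes. LGALS4, an intestinal galectin, fell by 0.64, 0.28 and 0.37 (SE 0.06 each) at 8, 24 and 48 h (adjusted p = 1.12e-05, 0.00780 and 0.000791), and CLDN7, of tight junctions, by 0.25 (SE 0.05, adjusted p = 0.00272) at 8 h. KRT19, a keratin, rose by 0.26 (SE 0.08, adjusted p = 0.0248) at 8 h, a call lost when any 1 control or 8 h array was left out (0.0531 to 0.0749), and was 0.41 higher (SE 0.08, adjusted p = 0.00264) at 24 h. KRT20, an intestinal keratin, and CLDN3, of tight junctions, were chosen after their values were seen. KRT20 rose by 0.53 at 24 h and 0.51 at 48 h (SE 0.05 each, adjusted p = 9.47e-06 and 6.99e-06). CLDN3 rose by 0.30 (SE 0.05, adjusted p = 0.000311) at 48 h, and by 0.15 (SE 0.05, adjusted p = 0.0360) at 24 h, where the call was lost when any 1 control or 24 h array was left out (0.0637 to 0.122).

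**Figure D3:**
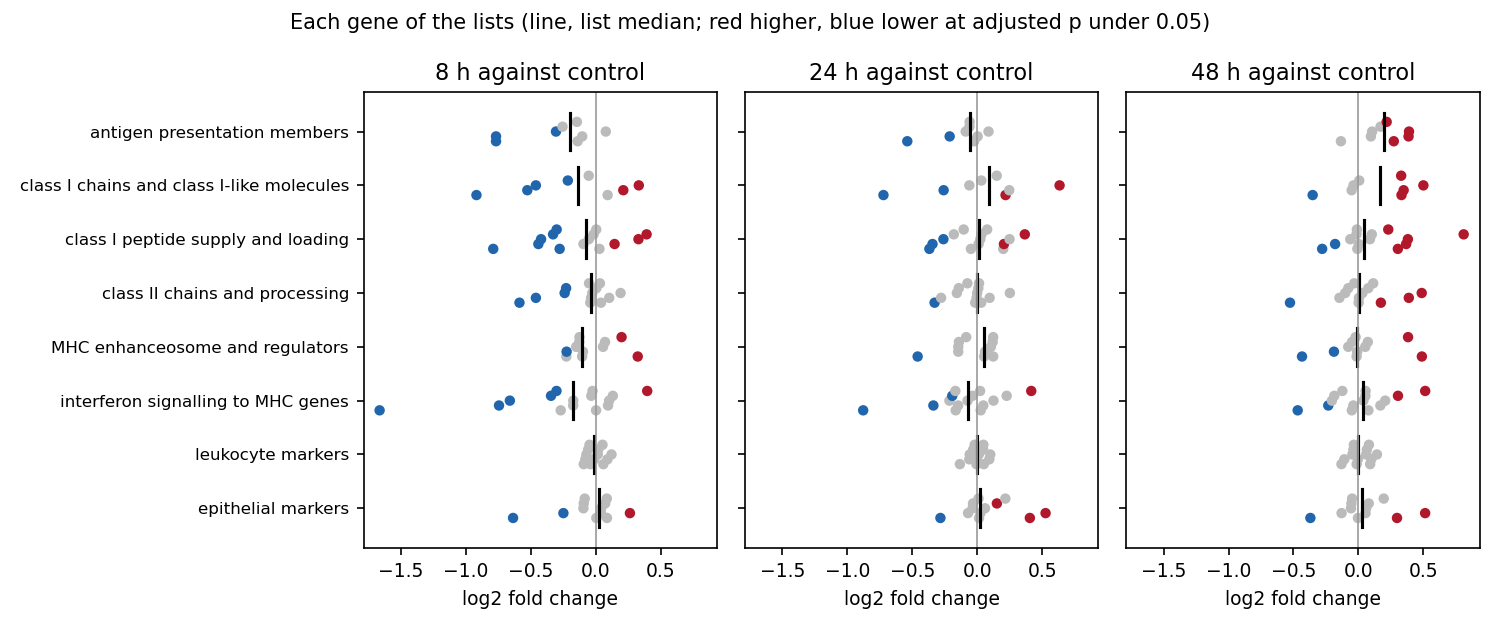
Log2 fold change against control (horizontal axis) of each measured gene of the 8 lists at 8, 24 and 48 h. Points are genes, black lines list medians, red and blue points higher and lower at an adjusted p under 0.05. IRF9 is the point farthest left at 8 h (-1.67), and the leukocyte markers have no coloured point.

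The promoter windows were searched for motifs of the interferon response and of the MHC enhancer. Interferons raise both MHC systems, so matches are not independent of the choice of members. RefSeq windows of 300 bases, 250 before and 50 after the start, matched 7 of the 10 members in 9 windows. For each motif a member counts with a match in any of its windows, while the share of all windows counts each window singly. The ISRE letters were found in 6 of the 7 members and in 3.57% of all 35116 windows. They lie at -134 to -125 and -128 to -119 from the start in TAP1, at -20 to -11 and -14 to -5 in TAPBP, and at -144 to -135 and -138 to -129 in B2M. The 2 matches overlap by part of their length in each of these. TAP2 has 1 at -58 to -49 and HLA-F 1 at -156 to -147, and ERAP1 has 1 at 3 to 12 in 1 of its 2 windows.

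The Y box was found in 5 of 7 members (34.6% of all windows), the X2 half-site in 2, B2M and TAP2 (24.6% of all windows), and the interferon-gamma-activated site, searched as TTCNNNGAA, in 1, a second TAP1 window (7.66% of all windows). HLA-DMA and TAP1 differed from control by -0.77 each at 8 h, the first without the ISRE letters and the second with them. TAPBP, B2M, ERAP1 and TAP2, with them, differed by -0.31, -0.15, -0.14 and -0.11. A match is a run of letters and not evidence of binding, and a link between matches and changes was not tested.

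**Figure D4:**
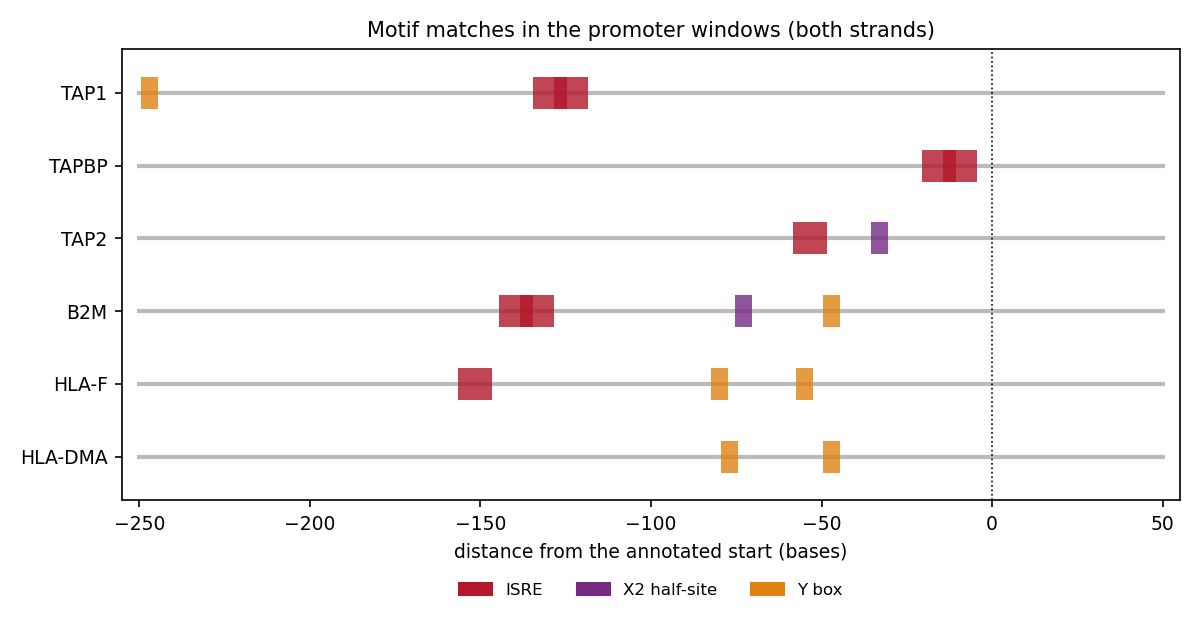
Motif matches on either strand in the promoter windows of 6 members, by distance in bases from the annotated start (dotted line). Grey lines are the windows of 300 bases and coloured boxes the matches, with overlapping boxes drawn on each other. HLA-DMA has 2 Y boxes and no ISRE box.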

How the data were processed

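Gene expression was measured in 12 HT29 samples on Affymetrix arrays. Per the submitters' processing notes the deposited log2 values come from RMA, with hg19 as the build and no versions named. In the deposited log2 values the control median is 0 in all 28869 probe sets, a centring not given in the sources used here. Base 2 is that of RMA. The depth of an array has no count, and its number limits the precision.

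Probe sets were named from the platform annotation: 19310 name 1 gene, 1752 several and 7807 none. A gene's value was the mean of its single-gene probe sets (685 of 18377 genes had several). Group means were fitted over all arrays with limma 3.58.1 in R 4.3.3 (lmFit, contrasts.fit, eBayes; 8 residual and 4.71 prior degrees of freedom) for 5 comparisons, two-sided, with Benjamini-Hochberg adjustment, after tests on simulated data. For HLA-DMA, TAP1, TAP2 and TAPBP, 3 probe sets each were averaged, which differed by at most 0.06 on any array. Figures used Python 3.11.15 and matplotlib 3.10.9.

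The members and lists were chosen with earlier results of these data known. All members are named, and from each other list up to 4 called genes with the largest change at 8 h against control, or, with fewer than 2 called, the 2 of lowest p. KRT20, CLDN3, IFNGR2, the class II chains with probe sets of their own and the shared probe sets were added after their values were seen. Genes like a member are the 3 with the highest Pearson correlation. Promoters are from RefSeq (GRCh38.p14), and the arrays' own coordinates were not used. Background correction, normalization and a filter on dim probes could not be varied from ratios. Same-numbered arrays correlated by -0.45 to 0.47 in their deviations from group means over 18 pairs, and the labels name no shared batch, so the numbers were not taken to pair them.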

Additional observations from a re-analysis of the deposited data

Results flagged for a closer look

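The effect of methotrexate and time in culture cannot be told apart here, as no untreated array of a later time was used. Some members differed between times of treatment by the direct comparison of the times, which equals the difference of their differences from control. Between 8 and 24 h this held for HLA-DMA (0.56, adjusted p = 7.21e-05) and TAPBP (0.28, adjusted p = 0.00113). Between 24 and 48 h it held for HLA-DMA (0.48, adjusted p = 0.000574), TAPBP (0.41, adjusted p = 0.000214), B2M (0.28, adjusted p = 0.00416), TAP1 (0.40, adjusted p = 0.00742) and ERAP1 (0.39, adjusted p = 0.0193), all by limma and all higher at the later time in 3 of 3 arrays than in each earlier array. No single value was tested as an outlier within a group of 3 arrays. The 48 h array that stood apart is described with its values in the report.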

How the results depend on the processing

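Alternatives covered the replicate block, centred arrays, array weights, a robust prior, a prior from single-probe-set genes, fits of 2 groups, separate probe sets, stricter thresholds and leaving out each array. Of the members' 48 values, recomputed under up to 19 alternatives, the direction and side of the threshold held 855 times, a call was lost 13 times and gained 25 times, and a value near 0 changed sign 11 times. Counts of members called stayed within 1.5 times except as follows. At 8 h against control 7 were called with array weights, against 3, and 3 to 5 with 1 array left out. At 24 h against control 1 was called at an adjusted p under 0.01, against 2, and 1 to 2 with 1 array left out. With at least a 1.5-fold change 0 members were called at 24 h or 48 h against control, at 24 h against 8 h and at 48 h against 24 h, and 2 at 8 h. The replicate block gave 4 calls at 8 h, NLRC5 joining at adjusted p = 0.0411, and a second HLA-F and HLA-B probe set passed at 24 h against 8 h (adjusted p = 0.0470, beside 0.0358 for the first), with no other member's call changed; 6 of 12 arrays correlated best with their own number.

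Sign changes were ERAP1 at 24 h against control, -0.01 with centred arrays, -0.08 with array weights and -0.06 to 0.06 with 1 array left out; TAPBP at 24 h, -0.05 to 0.01 over all alternatives; CIITA at 24 h against 8 h, -0.01 to 0.05, and at 48 h against 24 h, -0.01 with array weights and -0.04 to 0.05 over all; and 2 HLA-F and HLA-B probe sets at 24 h against control, -0.01 and 0.00 without 24 h replicate 3, and up to 0.13 and 0.17 with another array left out. The cause was not tested. Array weights were 0.199 for 48 h replicate 3 and 6.52 for replicate 2, so that setting leans on few arrays. Background correction, normalization and a dim-probe filter were not run, since signal over background is lost in ratios. Of 69 called values of list genes, which leave out IFNGR2, 0 changed sign and 75 of 1242 alternatives lost the call. Leaving out 48 h replicate 3 from list counts and from the shared HLA-F probe sets was chosen after seeing the data.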
